A study of Mus musculus with 8 samples.

Results

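The 10 genes described here, *Cyp7a1*, *Cyp8b1*, *Cyp27a1*, *Cyp7b1*, *Baat*, *Slc10a1*, *Abcb11*, *Slc51b*, *Nr1h4* and *Nr0b2*, make, conjugate and move bile acids in the liver or sense them. They were taken by symbol, as known genes of the pathway, from the 55385 gene identifiers of the table of counts and FPKM (fragment counts scaled to exon length and to the total of the liver). All 10 were among the 14340 genes tested, those that reached an FPKM of 0.5 in 4 or more of the 8 livers. Liver RNA was sequenced from 4 control and 4 *Usp39*-HKO male mice on a C57BL/6J background, all 5 weeks old and all fasted for 16 h, with 1 library per mouse. The *Usp39*-HKO mice carried *Usp39* fl/fl alleles, with loxP sites around exon 2, and Albumin-Cre, which is active in hepatocytes. The controls were littermates that the labels call WT, and whether they carried a floxed allele or Cre is not given in the sources used here. *Usp39* encodes a component of the spliceosome. Whole liver was used, so each library also held RNA of cells that do not express the Cre. Bile acids themselves are not in the table, and all values below are mRNA levels.

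Hepatocytes make bile acids from cholesterol along a classic route, which begins with the 7α-hydroxylase *Cyp7a1*, and an alternative route, which begins with the mitochondrial sterol 27-hydroxylase *Cyp27a1* and continues with the oxysterol 7α-hydroxylase *Cyp7b1*. *Cyp8b1* adds the 12α-hydroxyl group that separates cholic acid from the chenodeoxycholic and muricholic acids, *Baat* joins the finished acid to taurine or glycine, *Abcb11* pumps it into bile, and *Slc10a1* takes returning bile acids back up from portal blood. The bile acid receptor FXR, encoded by *Nr1h4*, binds DNA with RXR, induces *Nr0b2*, which encodes the corepressor SHP, and induces the exporters *Abcb11* and *Slc51b*, and the pathway limits *Cyp7a1* and *Cyp8b1* transcription when bile acids are abundant.

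Counts summed to between 8589636 and 10418450 per liver. *Usp39*, counted over the whole gene and not over the floxed exon alone, lay between 8.76 and 10.4 FPKM in controls and between 8.07 and 8.70 in *Usp39*-HKO livers (log2 fold change −0.41, SE 0.11, edgeR adjusted p = 0.0212). Some libraries stood apart. Control 4 held pancreatic RNA, with 606 FPKM summed over 9 pancreas markers, against 2.92 FPKM in the lowest control and at most 5.03 FPKM in *Usp39*-HKO livers. The summed FPKM of 13 cholangiocyte markers ranged over 14.5 to 17.0 among controls. Among *Usp39*-HKO livers it ran from 21 in number 1 to 60.3 in number 4, and 6 of the 9 tested markers rose. Of the Kupffer cell and stellate cell markers, 7 of 9 and 8 of 9 rose. Over all genes tested, 10.9% were called higher and 11.6% lower. Of 14 hepatocyte markers, 6 fell and 8 did not pass the test (median log2 fold change −0.40), and their sum lay between 21400 and 23700 FPKM in controls and between 19100 and 25400 FPKM in *Usp39*-HKO livers. The part of these shifts in the results below was not tested, apart from a fit scaled to the hepatocyte markers, chosen after seeing the data. In bulk tissue, fewer cells of a type and less RNA per cell cannot be told apart.

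Of the 10 genes, 8 fell in *Usp39*-HKO livers, none rose, nor at an unadjusted p under 0.05 or in DESeq2, and *Abcb11* and *Slc51b* did not pass the test (edgeR's quasi-likelihood test on counts with TMM scaling, Benjamini-Hochberg adjusted p under 0.05 over all genes tested). Among all genes tested, 11.6% were called lower and 10.9% higher. All 4 synthesis enzymes, the conjugating enzyme, the uptake transporter and both nuclear receptors were among the 8. The median log2 fold change of the 10 genes was −0.87, against −0.0015 for all genes tested. For *Cyp8b1*, *Cyp27a1*, *Cyp7b1*, *Baat* and *Slc10a1*, every *Usp39*-HKO FPKM lay below every control FPKM, which held for 4.81% of all genes tested, whereas the reverse, every *Usp39*-HKO liver above every control, held for 23.9% of all genes and for none of the 10. The FPKM are not rescaled between libraries and on the log2(FPKM + 1) scale the median gene lay 0.17 above controls in *Usp39*-HKO livers, so log2 fold changes are relative to the typical gene and FPKM are not.

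**Figure D1:**
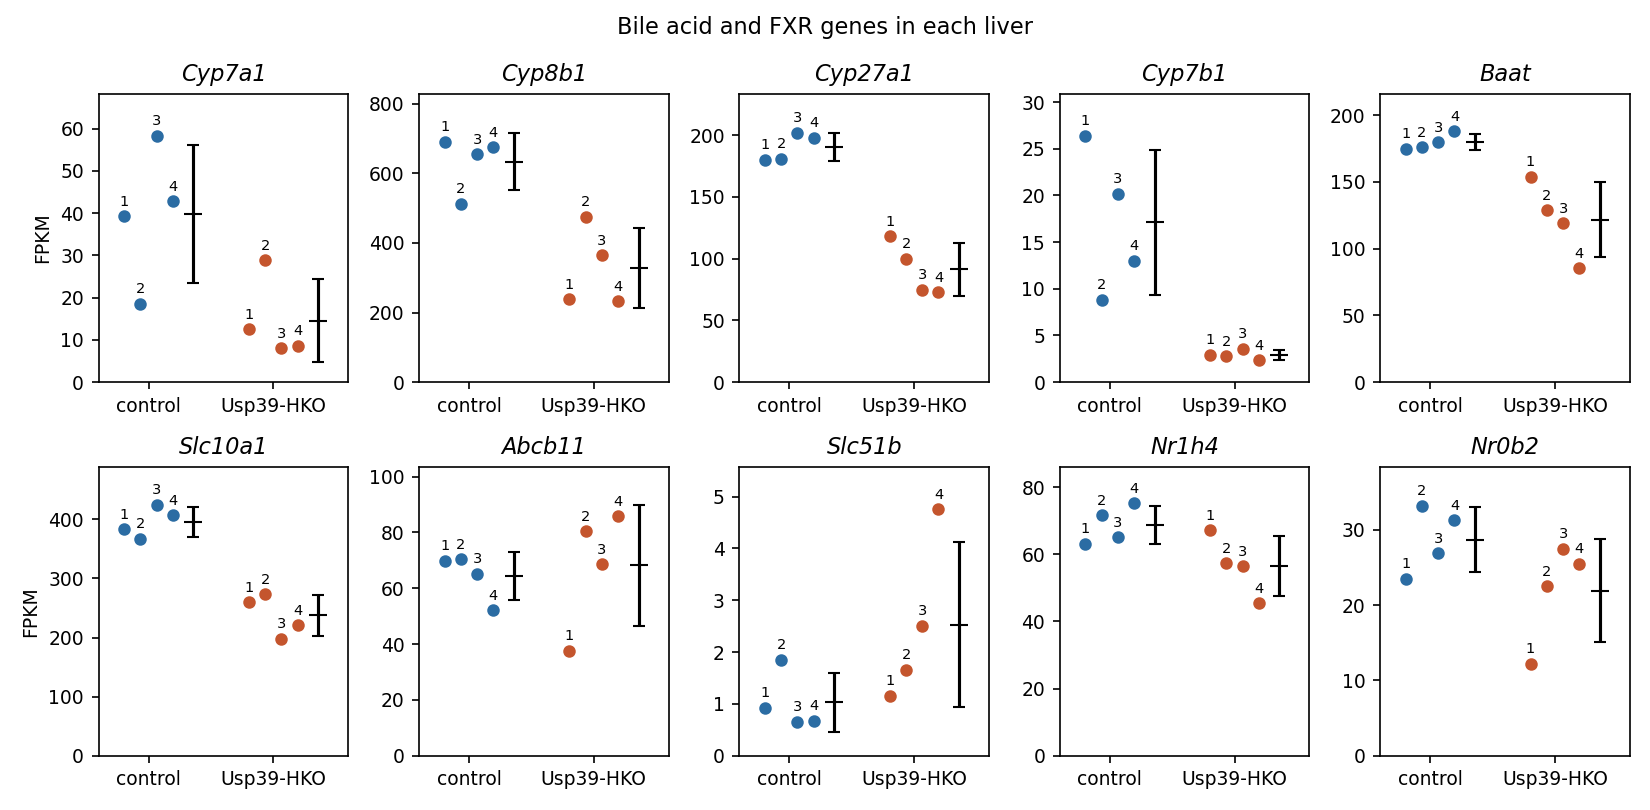
FPKM (y axis, from 0, a separate scale for each gene) of the 10 genes in 4 control and 4 *Usp39*-HKO livers, 1 numbered point per mouse, with the mean and SD as a bar. The 2 groups are apart for *Cyp8b1*, *Cyp27a1*, *Cyp7b1*, *Baat* and *Slc10a1* and overlap for the other 5 genes.

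*Cyp7a1* (ENSMUSG00000028240, minus strand of chromosome 4 of GRCm38, 6265612 to 6275633) encodes the rate-limiting enzyme of the classic route. It measured 39.2, 18.6, 58.3 and 42.8 FPKM in controls 1 to 4 and 12.5, 28.9, 8.03 and 8.62 FPKM in *Usp39*-HKO livers 1 to 4. The groups overlapped through control 2, the lowest control, and *Usp39*-HKO 2, the highest *Usp39*-HKO liver, while the other 3 *Usp39*-HKO livers lay below all controls. The mean fell from 39.7 ± 16.4 to 14.5 ± 9.78 FPKM (± SD, n = 4 per genotype, two-sided exact permutation p = 0.0571), with a log2 fold change of −1.68 (SE 0.42, 95% interval −2.61 to −0.75, adjusted p = 0.0164). The call was lost without control 3, the highest control, at a log2 fold change of −1.43 (adjusted p = 0.0535). *Cyp7a1* was among the most variable of the 10 genes between mice of one genotype, with a coefficient of variation of 41.2% in controls and 67.4% in *Usp39*-HKO livers.

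*Cyp8b1* (ENSMUSG00000050445, minus strand of chromosome 9, 121914356 to 121916305), the sterol 12α-hydroxylase, had the highest level of the 10 genes in both groups. The controls measured 691, 513, 655 and 675 FPKM and the *Usp39*-HKO livers 239, 474.99, 365 and 233 FPKM. The groups did not overlap, although *Usp39*-HKO 2 came close to control 2, the same pair that overlapped for *Cyp7a1*. The mean fell from 634 ± 81.6 to 328 ± 115 FPKM (± SD, n = 4 per genotype, two-sided exact permutation p = 0.0286, the smallest that 4 mice against 4 allow), with a log2 fold change of −1.18 (SE 0.23, 95% interval −1.68 to −0.68, adjusted p = 0.00492).

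RefSeq promoter windows of GRCm38.p6, the 250 bases before an annotated start of a gene, were given for 7 of the 10 genes. The 120 bases nearest the start are shown for 3 of them. In *Cyp8b1* (chr9:121916306-121916425, minus strand) the first capitals are an HNF4A motif, CAAAGTCCA, 67 to 59 bases before the start, and the second a TATA box, TATAAA, 31 to 26 bases before it.
Cyp8b1: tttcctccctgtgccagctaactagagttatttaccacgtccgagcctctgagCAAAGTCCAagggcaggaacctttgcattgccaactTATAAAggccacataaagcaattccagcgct
Searched on both strands of 32851 windows of the same length, CAAAGTCCA is in 0.38% and TATAAA in 12.37%. HNF4A is a known activator of *Cyp8b1*. *Hnf4a* itself measured 158 ± 29.1 FPKM in controls and 158 ± 13.6 FPKM in *Usp39*-HKO livers (± SD, n = 4 per genotype), with a log2 fold change of −0.23 (SE 0.14, adjusted p = 0.292) that was 0.01 without scaling factors and 0.24 when scaled to hepatocyte markers.

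On the alternative route, *Cyp27a1* (ENSMUSG00000026170, plus strand of chromosome 1, 74713574 to 74737892) measured 180, 181, 202 and 198 FPKM in controls and 118, 99.8, 74.8 and 72.7 FPKM in *Usp39*-HKO livers. The controls lay within a narrow band, and the nearest *Usp39*-HKO liver, number 1, was well below it. The mean fell from 190.0 ± 11.6 to 91.3 ± 21.7 FPKM (± SD, n = 4 per genotype, exact permutation p = 0.0286), with a log2 fold change of −1.28 (SE 0.18, 95% interval −1.67 to −0.88, adjusted p = 0.0012). The window of *Cyp27a1* held none of the motifs searched.

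*Cyp7b1* (ENSMUSG00000039519, minus strand of chromosome 3, 18071950 to 18243338), the next enzyme of the alternative route and one that is higher in male than in female mouse liver, had the largest fall of the 10 genes. The controls measured 26.4, 8.85, 20.2 and 13.0 FPKM and the *Usp39*-HKO livers 2.95, 2.76, 3.58 and 2.34 FPKM. Controls were spread widely, whereas the 4 *Usp39*-HKO livers were close together and all below the lowest control. The mean fell from 17.1 ± 7.78 to 2.91 ± 0.516 FPKM (± SD, n = 4 per genotype, exact permutation p = 0.0286), which is 17.0% of the control mean. The log2 fold change was −2.79 (SE 0.32, 95% interval −3.49 to −2.08, adjusted p = 0.000567). The counts behind it were 190 to 526 per control and 48 to 74 per *Usp39*-HKO liver.

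*Baat* (ENSMUSG00000039653, minus strand of chromosome 4, 49489422 to 49506557) conjugates bile acids with taurine or glycine. It measured 175, 176, 180 and 188 FPKM in controls and 154, 129, 119 and 85.4 FPKM in *Usp39*-HKO livers. The controls differed little, with a coefficient of variation of 3.26% against 23.3% in *Usp39*-HKO livers, and *Usp39*-HKO 1 was nearest to them and *Usp39*-HKO 4 farthest. The log2 fold change was −0.78 (SE 0.18, 95% interval −1.18 to −0.38, adjusted p = 0.012), and it was −0.37 (adjusted p = 0.0668) when scaled to hepatocyte markers.

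*Slc10a1* (ENSMUSG00000021135, minus strand of chromosome 12, 80953183 to 80968705) encodes NTCP, the main sodium-dependent bile acid uptake transporter of the sinusoidal membrane. It measured 383, 367, 425 and 407 FPKM in controls and 260, 273, 198 and 221 FPKM in *Usp39*-HKO livers. The groups were far apart for *Slc10a1*, with the highest *Usp39*-HKO liver below the lowest control. The mean fell from 396 ± 25.7 to 238 ± 34.7 FPKM (± SD, n = 4 per genotype, exact permutation p = 0.0286), with a log2 fold change of −0.96 (SE 0.14, 95% interval −1.28 to −0.65, adjusted p = 0.00146).

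*Abcb11* (ENSMUSG00000027048, minus strand of chromosome 2, 69238282 to 69342616) encodes BSEP, the canalicular bile salt export pump. It measured 69.8, 70.4, 65.2 and 52.1 FPKM in controls and 37.6, 80.4, 68.7 and 85.9 FPKM in *Usp39*-HKO livers. *Usp39*-HKO 1 was lower than every other liver, and *Usp39*-HKO 2 and 4 were higher than every control. The means were 64.4 ± 8.52 and 68.2 ± 21.6 FPKM (± SD, n = 4 per genotype, exact permutation p = 0.8), with a log2 fold change of −0.17 (SE 0.20, 95% interval −0.61 to 0.27, adjusted p = 0.583) that turned to 0.09 without scaling factors, to 0.35 when scaled to hepatocyte markers and to 0.03 without *Usp39*-HKO 1. The interval reaches from a fall of 0.61 to a rise of 0.27 on the log2 scale, so the direction of any change within it was not resolved.

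The *Abcb11* window (chr2:69342617-69342736, minus strand) is shown because FXR acts on this gene through an inverted repeat of half-sites with 1 base between them. The capitals mark 2 matches to AGGTCANTGACCT with at least 10 of its 12 fixed letters, 94 to 82 and 63 to 51 bases before the start.
Abcb11: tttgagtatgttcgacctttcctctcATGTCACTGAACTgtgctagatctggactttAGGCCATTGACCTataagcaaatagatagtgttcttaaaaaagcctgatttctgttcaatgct
Of all 32851 windows, 0.96% hold such a match on either strand, and *Abcb11* was the only one of the 7 genes with a window that did. The half-site AGGTCA alone, which is in 14.02% of windows and overlaps the second of these matches, was also in those of *Slc51b*, *Nr1h4* and *Slc10a1*. The longer motif CAAGGTCA of the receptor LRH-1, which is in 1.33% of windows, was in no window of the 7 genes. The *Nr1h4* window (89506659 to 89506908) lies wholly inside the gene as annotated, before an internal start. So does the *Slc10a1* window that holds the half-site (80968080 to 80968329).

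*Slc51b* (ENSMUSG00000053862, minus strand of chromosome 9, 65412714 to 65422955) encodes OSTβ, the smaller subunit of a basolateral bile acid exporter. Its counts were low, 6, 13, 4 and 5 in controls and 8, 12, 17 and 32 in *Usp39*-HKO livers, or 0.922, 1.85, 0.657 and 0.677 FPKM and 1.16, 1.66, 2.51 and 4.76 FPKM. *Usp39*-HKO 3 and 4 were above all controls, and control 2 was above *Usp39*-HKO 1 and 2. The log2 fold change was 1.01 (SE 0.48, 95% interval −0.03 to 2.06, adjusted p = 0.153) and the exact permutation p of the FPKM was 0.0857. When scaled to hepatocyte markers it was 1.53 with an adjusted p of 0.0281, and without *Usp39*-HKO 4 it was 0.58 (adjusted p = 0.439).

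*Slc51b* is an FXR target that cholangiocytes and ileal cells also express. *Epcam*, the cholangiocyte marker shown here, was chosen after its values were seen. It measured 0.844, 1.29, 0.849 and 0.875 FPKM in controls and 1.55, 3.98, 5.30 and 9.37 FPKM in *Usp39*-HKO livers. *Epcam* and *Slc51b* were both highest in control 2 among controls and had the same order among the 4 *Usp39*-HKO livers. Of 8 ileal markers, *Fabp6*, *Fgf15*, *Sis* and *Cdx2* were at 0 in every liver, and *Lct* had 3 counts in *Usp39*-HKO 3 and none elsewhere. *Vil1*, which had 1 to 4 counts per control and 4 to 25 per *Usp39*-HKO liver, was not tested. *Fabp2* and *Apoa4*, which liver also expresses, were abundant, with *Fabp2* between 94.1 and 129 FPKM in controls and between 72.8 and 160.0 FPKM in *Usp39*-HKO livers and *Apoa4* between 350.0 and 591 FPKM and between 363 and 671 FPKM, and neither passed the test (log2 fold changes −0.24 and −0.05). The part of cholangiocyte RNA in the *Slc51b* values was not tested. *Slc51a*, which encodes the partner subunit OSTα, had 1 to 4 counts per liver and was not tested. Of the exon bases of *Slc51b*, 12.8% overlap *Rasl12* on the opposite strand, and strandedness of the counting is not given in the sources used here.

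*Nr1h4* (ENSMUSG00000047638, minus strand of chromosome 10, 89454234 to 89533585), which encodes FXR, measured 63.2, 71.7, 65.1 and 75.3 FPKM in controls and 67.1, 57.3, 56.4 and 45.4 FPKM in *Usp39*-HKO livers. *Usp39*-HKO 1 lay among the controls, and the other 3 lay below them. The mean fell from 68.8 ± 5.66 to 56.6 ± 8.86 FPKM (± SD, n = 4 per genotype, exact permutation p = 0.0857), with a log2 fold change of −0.50 (SE 0.15, 95% interval −0.83 to −0.18, adjusted p = 0.0309). The *Nr1h4* call rested on the full set of mice and on scaling, since 7 of the 8 fits without 1 mouse lost it (adjusted p up to 0.0855) and the change was −0.28 (adjusted p = 0.114) without scaling factors and −0.08 (adjusted p = 0.684) when scaled to hepatocyte markers.

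*Nr0b2* (ENSMUSG00000037583, plus strand of chromosome 4, 133553376 to 133556536), which encodes SHP, measured 23.5, 33.2, 26.9 and 31.3 FPKM in controls and 12.2, 22.5, 27.5 and 25.5 FPKM in *Usp39*-HKO livers. *Usp39*-HKO 1 had the lowest value by far, and *Usp39*-HKO 3 and 4 lay within the control range. The log2 fold change was −0.63 (SE 0.20, 95% interval −1.07 to −0.20, adjusted p = 0.0415), and the exact permutation p of the FPKM was 0.143. Of the 8 fits without 1 mouse, 5 lost the *Nr0b2* call (adjusted p up to 0.103), and the change was −0.39 (adjusted p = 0.196) without scaling factors and −0.14 (adjusted p = 0.687) when scaled to hepatocyte markers. Its window (chr4:133553256-133553375, plus strand) is shown as that of an FXR target in which neither the half-site nor the inverted repeat was found, with TATAAA in capitals, 28 to 23 bases before the start. No match says only that these letters are not in this window.
Nr0b2: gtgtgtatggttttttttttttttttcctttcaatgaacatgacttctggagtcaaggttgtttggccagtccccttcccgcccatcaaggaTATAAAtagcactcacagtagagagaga

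**Figure D2:**
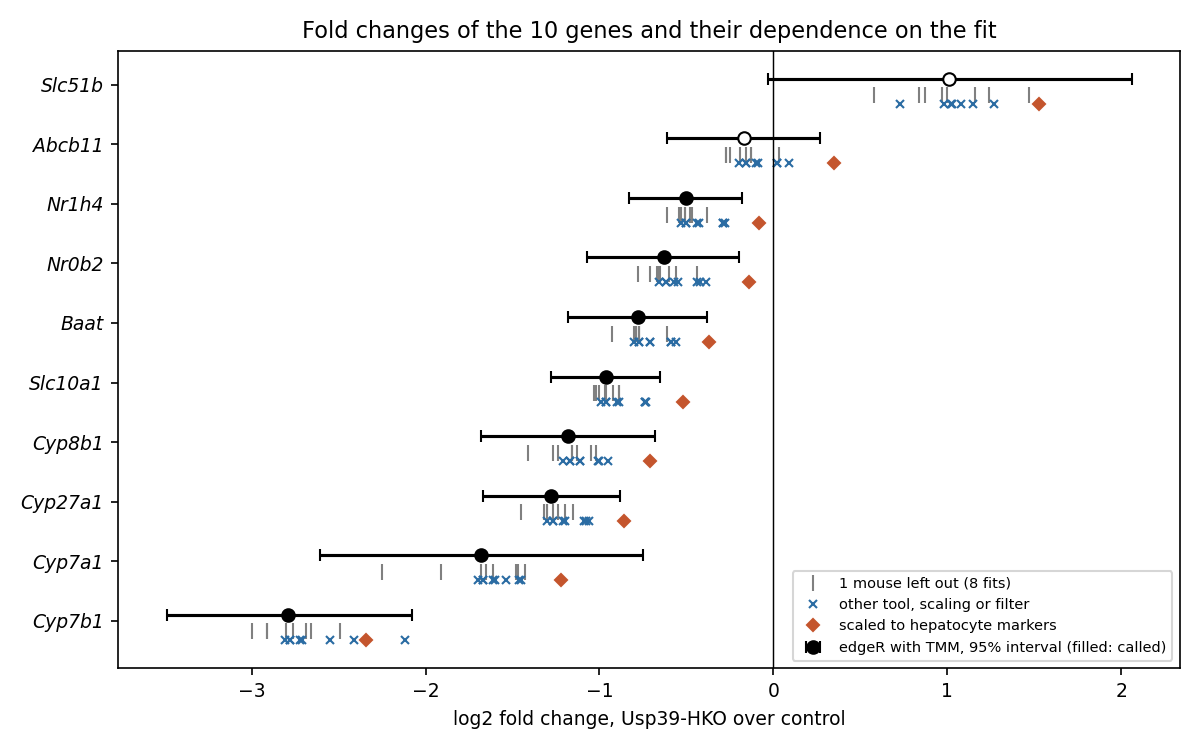
Log2 fold change of each gene, *Usp39*-HKO over control (x axis), with the edgeR estimate and its 95% interval (circles, filled where adjusted p was under 0.05), the 8 fits without 1 mouse (grey ticks), the other tools, scalings and filters (crosses) and the fit scaled to hepatocyte markers (diamonds). The estimates for *Cyp7b1*, *Cyp7a1*, *Cyp27a1*, *Cyp8b1*, *Slc10a1* and *Baat* stay below 0 in every fit shown. Those for *Nr0b2* and *Nr1h4* also stay below 0, but many of these fits give them no call. Those for *Abcb11* fall on both sides of 0.

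The levels of the 10 genes, per exon length, kept *Cyp8b1* and *Slc10a1* at the top and *Cyp7b1* and *Slc51b* at the bottom of both groups. In controls the mean FPKM ran from *Cyp8b1* (634) over *Slc10a1* (396), *Cyp27a1* (190.0), *Baat* (180.0), *Nr1h4* (68.8), *Abcb11* (64.4), *Cyp7a1* (39.7), *Nr0b2* (28.7) and *Cyp7b1* (17.1) to *Slc51b* (1.03). The ranges of neighbours overlapped from *Cyp27a1* to *Baat* and along the run from *Nr1h4* to *Cyp7b1*. In *Usp39*-HKO livers the order was *Cyp8b1* (328), *Slc10a1* (238), *Baat* (122), *Cyp27a1* (91.3), *Abcb11* (68.2), *Nr1h4* (56.6), *Nr0b2* (21.9), *Cyp7a1* (14.5), *Cyp7b1* (2.91) and *Slc51b* (2.52). There the gaps without overlap lay below *Slc10a1*, below *Nr1h4* and below *Cyp7a1*. *Cyp7b1* and *Slc51b*, apart in controls, overlapped in *Usp39*-HKO livers.

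Ratios between genes of the same liver do not depend on scaling between libraries, and 7 pairs were compared as a description. The ratio of *Cyp8b1* to *Cyp7b1* was the only one whose groups did not overlap. It was 26.1, 58.0, 32.5 and 52.0 in controls and 81.1, 172, 102 and 99.7 in *Usp39*-HKO livers. On the log2 scale its mean went from 5.32 ± 0.55 to 6.77 ± 0.46 (± SD, n = 4 per genotype), a difference of 1.45. *Cyp7b1* was thus lower by more than *Cyp8b1* in every *Usp39*-HKO liver, relative to every control. For the classic route, the log2 ratio of *Cyp8b1* to *Cyp7a1* averaged 4.10 ± 0.54 in controls and 4.64 ± 0.65 in *Usp39*-HKO livers, and that of *Cyp27a1* to *Cyp7a1* was 2.37 ± 0.64 and 2.83 ± 0.70. Neither difference exceeded the SD of the *Usp39*-HKO livers. The log2 ratio of *Cyp7b1* to *Cyp7a1* was −1.22 ± 0.52 and −2.13 ± 0.93.

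Among the transport ratios, *Slc10a1* over *Abcb11*, uptake over canalicular export, was 5.49, 5.22, 6.52 and 7.81 in controls and 6.93, 3.39, 2.88 and 2.57 in *Usp39*-HKO livers. Only *Usp39*-HKO 1 lay within the control range, and the other 3 were below it. The log2 ratio of *Slc51b* to *Abcb11* averaged −6.10 ± 0.59 in controls and −4.89 ± 0.59 in *Usp39*-HKO livers, with overlap. For *Nr0b2* over *Nr1h4*, target over receptor, the log2 ratio averaged −1.27 ± 0.13 in controls and −1.42 ± 0.73 in *Usp39*-HKO livers. *Usp39*-HKO 1 (−2.46) was below all controls and *Usp39*-HKO 3 (−1.04) and 4 (−0.83) above them, so the means hide livers that went opposite ways.

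**Figure D3:**
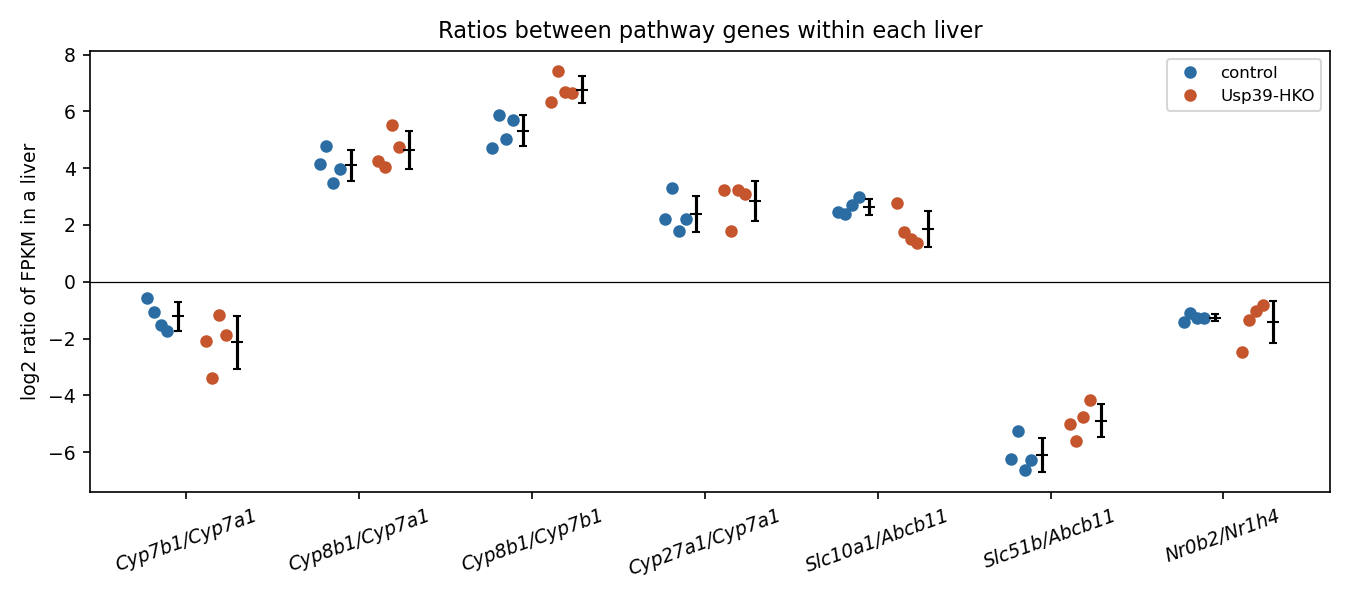
Log2 ratio of the FPKM of 2 genes in the same liver (y axis) for 7 pairs (x axis), 1 point per mouse, with the mean and SD of 4 controls (blue) and 4 *Usp39*-HKO livers (orange). Only *Cyp8b1*/*Cyp7b1* separates the groups, with controls between 4.71 and 5.86 and *Usp39*-HKO livers between 6.34 and 7.43.

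The livers of one genotype did not share one pattern. Relative to the control mean on the log2 scale of FPKM, *Usp39*-HKO 1 had the lowest *Abcb11* (−0.78) and *Nr0b2* (−1.24) of all 8 livers and an *Nr1h4* close to the control mean (−0.04). *Usp39*-HKO 2 was the least affected for *Cyp7a1* (−0.46) and *Cyp8b1* (−0.42), yet its *Cyp7b1* was as low as in the others (−2.63). *Usp39*-HKO 4 had the lowest *Cyp27a1* (−1.39), *Cyp7b1* (−2.87), *Baat* (−1.07) and *Nr1h4* (−0.60) and the highest *Slc51b* (2.21). Its *Cyp8b1* (−1.44) was also the lowest, close to that of *Usp39*-HKO 1 (−1.41). The cholangiocyte marker sum was highest in *Usp39*-HKO 4 as well, and its part in these values was not tested. *Cyp27a1*, *Cyp7b1* and *Slc10a1* were lower than −0.5 in all 4 *Usp39*-HKO livers.

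*Cyp7a1* transcription is known to vary over the day, and the clock genes *Nr1d1* and *Dbp* are among its regulators. *Nr1d1*, which encodes the repressor REV-ERBα, measured 5.88, 10.7, 6.81 and 5.65 FPKM in controls and 45.3, 23.0, 23.6 and 32.1 FPKM in *Usp39*-HKO livers (log2 fold change 1.87, SE 0.27, adjusted p = 0.00122). *Dbp* measured 0.691, 1.31, 0.739 and 1.03 FPKM in controls and 11.1, 1.08, 2.17 and 2.85 FPKM in *Usp39*-HKO livers. All *Usp39*-HKO livers were above all controls for *Nr1d1*, while the rise of *Dbp* (log2 fold change 1.99, adjusted p = 0.0459) dropped to 0.84 (adjusted p = 0.0846) without *Usp39*-HKO 1, the highest liver for both genes. The *Dbp* call was lost in 6 of the 8 fits without 1 mouse (adjusted p up to 0.112) and in both limma fits (adjusted p = 0.0961 and 0.0922). The order of dissection over the day is not given in the sources used here, and its part in the *Cyp7a1* values was not tested.

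**Figure D4:**
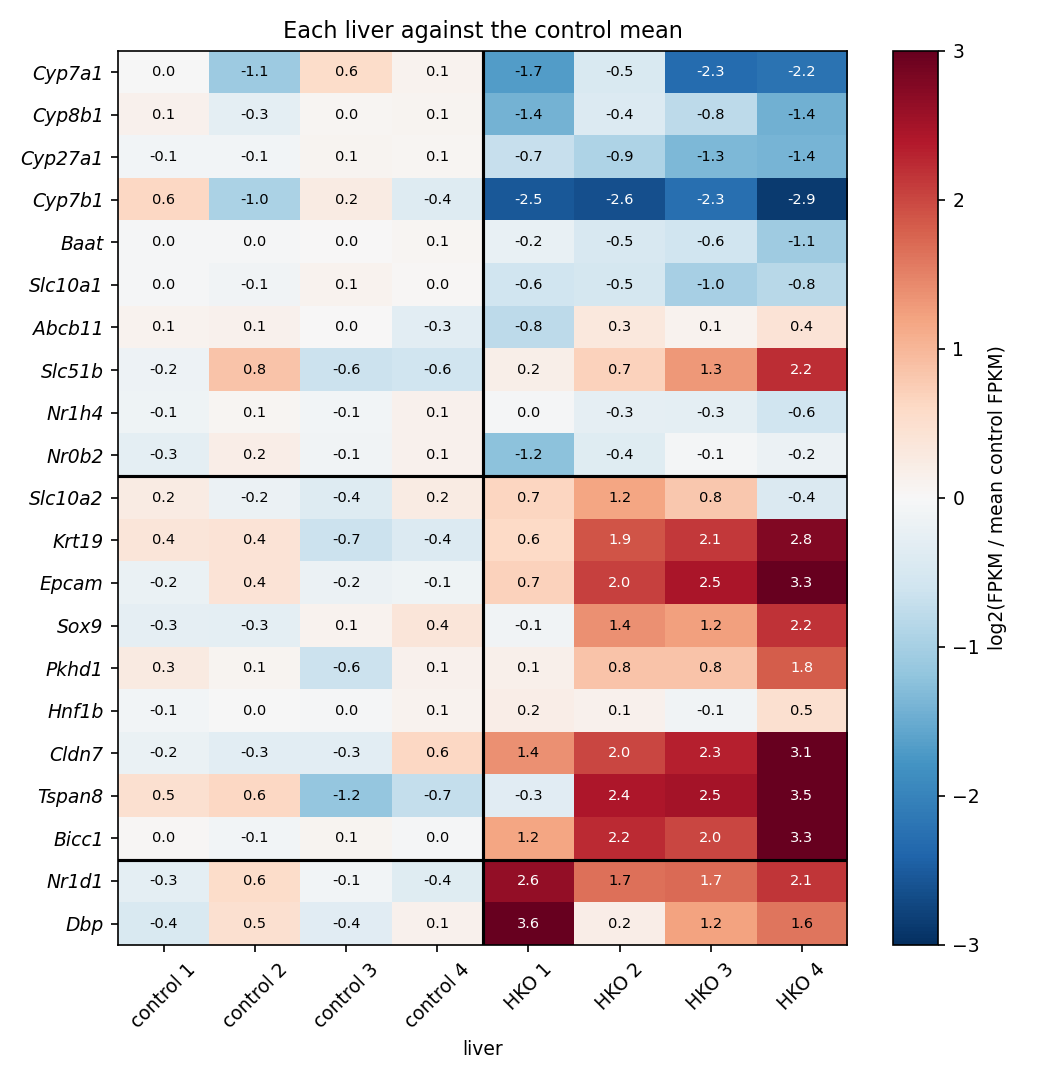
Log2 of the FPKM of each liver over the mean FPKM of the 4 controls (colour, clipped at −3 and 3, with the value printed), for the 10 genes (top), the cholangiocyte markers that were tested (middle) and 2 clock genes (bottom), in 4 control (left) and 4 *Usp39*-HKO livers (right). *Cyp7b1* lies between −2.87 and −2.26 in all *Usp39*-HKO livers, whereas *Slc51b* runs from 0.18 in *Usp39*-HKO 1 to 2.21 in *Usp39*-HKO 4, the liver with the highest cholangiocyte marker sum.

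Of 77 further genes of the pathway, listed by role, 70 were tested, and 27 fell, 8 rose and 35 did not pass the test. Among the 8, *Abcc1* and *Sult2a1* met the FPKM filter only through the *Usp39*-HKO livers, so only a rise could be called for them. The median log2 fold change of the 70 genes was −0.34. Of all genes tested, 11.6% were called lower and 10.9% higher. Without control 3, whose removal cost the most calls, 19 of these pathway genes fell and 3 rose. Without control 4, the library with pancreatic RNA, 20 fell and 3 rose. Of the 10 genes above, 5 fell without control 3 and 6 without control 4. Of all 14340 genes tested, 949 were lower and 982 higher without control 3. Without control 4, 1023 were lower and 1020 higher.

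Of 19 tested further synthesis genes, 8 fell, 1 rose and 10 did not pass the test (median log2 fold change −0.32). *Slc27a5*, the bile acid-CoA ligase that acts before *Baat*, fell from 438 ± 37.3 to 273 ± 64.2 FPKM (± SD, n = 4 per genotype), a log2 fold change of −0.89 (SE 0.19, adjusted p = 0.00823), without overlap between the groups. *Acox2*, the peroxisomal oxidase of the side chain, changed by −0.83 (SE 0.13, adjusted p = 0.00208) and the acyltransferase *Acnat2* by −0.95 (SE 0.21, adjusted p = 0.00981), or by −0.49 (adjusted p = 0.0814) when scaled to hepatocyte markers. *Cyp2c70*, which makes muricholic acids in mice, was the synthesis gene that rose. It measured 13.9, 35.5, 17.6 and 20.2 FPKM in controls and 83.4, 45.3, 61.2 and 40.3 FPKM in *Usp39*-HKO livers, without overlap. Its log2 fold change was 1.19 (SE 0.31, adjusted p = 0.0183), and 3 of the 8 fits without 1 mouse lost the call (adjusted p up to 0.0603). *Cyp2c70* and *Cyp8b1*, which act on different branches of the bile acid pool, thus moved in opposite directions. *Hsd3b7*, the next enzyme after 7α-hydroxylation, was listed at 0.146 FPKM or less in every liver, but 99.2% of its exon bases overlap other genes, so its level is uncertain. It was chosen after its values were seen.

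Uptake carriers beyond *Slc10a1* fell in 3 of 7 cases, and 4 did not pass the test (median log2 fold change −0.27). *Slco1a1*, an organic anion carrier, measured 52.9, 36.0, 42.1 and 35.6 FPKM in controls and 5.75, 11.6, 18.4 and 12.3 FPKM in *Usp39*-HKO livers (log2 fold change −2.04, SE 0.28, adjusted p = 0.00104). *Slco2b1* changed by −1.09 (SE 0.15, adjusted p = 0.00122) and *Slco1b2*, the liver carrier of unconjugated bile acids, by −1.0 (SE 0.23, adjusted p = 0.0113). For all 3 carriers the *Usp39*-HKO livers lay below the lowest control. For *Slco1b2* the gap was within rounding, with *Usp39*-HKO 2 and control 4 both at 186 FPKM. The *Slco1b2* call was lost when scaled to hepatocyte markers (−0.49, adjusted p = 0.119) and in limma on log2(FPKM + 0.1) (−0.83, adjusted p = 0.0604).

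Of 9 other canalicular genes, 4 fell, 1 rose and 4 did not pass the test (median log2 fold change −0.39). *Abcb1a*, a multidrug exporter, rose from 0.864 ± 0.198 to 3.46 ± 1.51 FPKM (± SD, n = 4 per genotype), a log2 fold change of 1.74 (SE 0.26, adjusted p = 0.00144). *Abcg8*, the subunit that forms the sterol exporter with *Abcg5*, fell by 1.02 on the log2 scale (SE 0.14, adjusted p = 0.00119), and *Slc47a1*, a cation exporter, fell by 0.64 (SE 0.12, adjusted p = 0.00401). The copper pump *Atp7b* had a log2 fold change of −0.46 (SE 0.10, adjusted p = 0.00968) that was 0.01 when scaled to hepatocyte markers and between −0.23 and −0.21, without a call, in limma and without scaling factors. *Slc47a1* was at −0.17 (adjusted p = 0.456) when scaled to hepatocyte markers and at −0.41 (adjusted p = 0.0598) in limma on log2(FPKM + 0.1). Of the 3 tested basolateral exporters, *Abcc3* fell from 86.4 ± 16.2 to 51.8 ± 5.18 FPKM (log2 fold change −0.96, SE 0.16, adjusted p = 0.00234), whereas *Abcc4* and *Abcc1* rose by 0.67 (SE 0.20, adjusted p = 0.0312) and 0.95 (SE 0.26, adjusted p = 0.022) from levels of 1.06 ± 0.106 and 0.335 ± 0.071 FPKM (± SD, n = 4 per genotype). Of the 8 fits without 1 mouse, 4 lost the *Abcc4* call (adjusted p up to 0.0912) and 3 the *Abcc1* call (up to 0.0704), without control 3, control 4 or *Usp39*-HKO 4 in both cases and without control 1 for *Abcc4*. *Abcc1* was also at 0.39 (adjusted p = 0.0562) in limma on log2(FPKM + 1). At no more than 0.433 FPKM in any control, *Abcc1* met the filter of 0.5 FPKM only through the *Usp39*-HKO livers. The direction of its change was thus set by the filter.

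Of 8 genes of sulfation and detoxification, 3 fell, 1 rose and 4 did not pass the test (median log2 fold change −0.28). The bile acid sulfotransferase *Sult2a1* was listed at 0, 0.396, 0 and 0.282 FPKM in controls and at 287, 47.9, 2.16 and 172 FPKM in *Usp39*-HKO livers. The spread among *Usp39*-HKO livers was thus wide, and *Usp39*-HKO 3 was far below the other 3. *Sult2a1*, the gene that rose, met the filter of 0.5 FPKM only through the *Usp39*-HKO livers, so only a rise could be called for it. *Sult2a8*, a sulfotransferase of the same family, fell from 151 ± 27.2 to 36.9 ± 17.3 FPKM (± SD, n = 4 per genotype), a log2 fold change of −2.26 (SE 0.31, adjusted p = 0.00114). Reads shared within this multigene family were not checked, so both levels are uncertain to that extent. *Cyp3a13* changed by −1.15 (SE 0.33, adjusted p = 0.0281) and *Ugt1a1*, of whose exon bases 82.7% overlap other genes, by −0.55 (SE 0.13, adjusted p = 0.0141). The *Cyp3a13* call was lost in 5 of the 8 fits without 1 mouse (adjusted p up to 0.0882) and in both limma fits (−0.90 and −0.91). *Ugt1a1* was at −0.32 (adjusted p = 0.0955) without scaling factors, at −0.32 and −0.33 in the limma fits and at −0.10 (adjusted p = 0.669) when scaled to hepatocyte markers, all without a call.

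Of 19 tested receptors and regulators, 7 fell, 2 rose and 10 did not pass the test (median log2 fold change −0.30). *Nr1i3*, which encodes the xenobiotic receptor CAR, fell by 1.31 on the log2 scale (SE 0.16, adjusted p = 0.000758), although 74.9% of its exon bases overlap *Tomm40l* on the opposite strand. *Ppara* changed by −0.83 (SE 0.13, adjusted p = 0.00209). *Nr5a2*, which encodes LRH-1, an activator of *Cyp7a1* and *Cyp8b1*, changed by −0.52 (SE 0.15, adjusted p = 0.028), and 6 of the 8 fits without 1 mouse lost the call (adjusted p up to 0.0879). Scaled to hepatocyte markers, *Nr5a2* was at −0.05 (adjusted p = 0.839) and *Ppara* at −0.38 (adjusted p = 0.0854), and *Nr5a2* was between −0.44 and −0.28, without a call, in limma, without scaling factors and at a mean FPKM of at least 5. *Rxra*, the FXR partner, had a log2 fold change of −0.30 (SE 0.15, adjusted p = 0.179) that was 0.12 when scaled to hepatocyte markers. Of the hepatocyte receptor for the ileal hormone *Fgf15*, *Fgfr4* changed by −0.48 (SE 0.12, adjusted p = 0.014), and its coreceptor *Klb* by −0.34 (SE 0.11, adjusted p = 0.0395), which was 0.11 when scaled to hepatocyte markers. Under that scaling *Fgfr4* was at −0.02 (adjusted p = 0.934), and it was between −0.25 and −0.23, without a call, in limma and without scaling factors. The *Klb* call was lost in 6 of the 8 fits without 1 mouse (adjusted p up to 0.113), and *Klb* was between −0.28 and −0.10, without a call, in limma, without or with upper-quartile scaling factors and at a mean FPKM of at least 5.

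A list of 14 genes taken as induced by FXR, with no species recorded, included *Nr0b2*, *Abcb11*, *Slc51b* and *Baat*. Of its 13 tested genes, 4 fell, 1 rose and 8 did not pass the test (median log2 fold change −0.42). The shares over all genes tested were 11.6% called lower and 10.9% called higher. The 4 were *Slc27a5*, *Baat*, *Nr0b2* and *Fetub* (log2 fold change −0.63, SE 0.18, adjusted p = 0.0299), and the 1 that rose was *Pltp*, named after its value was seen. The *Fetub* call was lost in 5 of the 8 fits without 1 mouse (adjusted p up to 0.0907), and *Fetub* was between −0.42 and −0.41, without a call, in limma and without scaling factors and at −0.21 (adjusted p = 0.28) when scaled to hepatocyte markers.

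**Figure D5:**
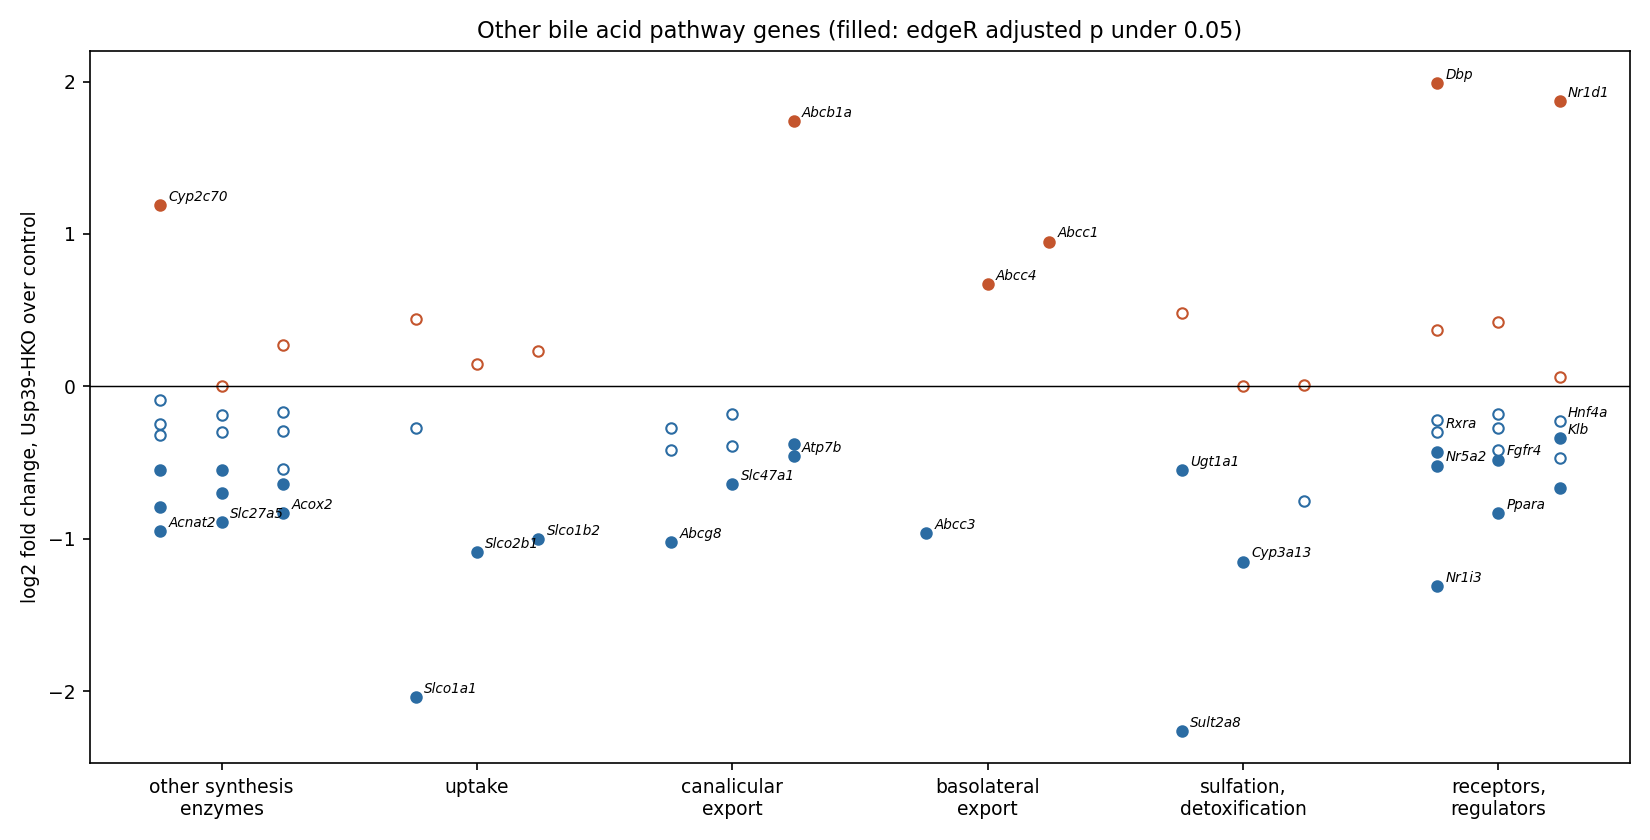
Log2 fold change, *Usp39*-HKO over control (y axis), of further bile acid pathway genes in 6 groups by role (x axis), filled where the edgeR adjusted p was under 0.05, with the genes named in the text labelled and *Sult2a1* left out because controls were near 0. *Slco1a1* (−2.04) and *Sult2a8* (−2.26) fell most, and *Dbp* (1.99), *Nr1d1* (1.87) and *Abcb1a* (1.74) rose most.

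The genes whose log2 TMM-scaled CPM over the 8 livers was most like that of *Cyp7b1*, the gene with the largest fall, were *Acss2* (Pearson r = 0.992), ENSMUSG00000107451 (0.989), listed without a symbol, and *Ttc39c* (0.98). *Acss2*, the cytosolic acetyl-CoA synthetase, went from 8.04 ± 1.18 to 5.10 ± 0.283 FPKM and *Ttc39c* from 49.3 ± 10.7 to 25.6 ± 3.78 FPKM (± SD, n = 4 per genotype). ENSMUSG00000107451 went from 3.13 ± 0.799 to 0.969 ± 0.17 FPKM. These correlations describe 8 livers that fall into 2 groups, so any gene that differs strongly between genotypes scores high.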

How the data were processed

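The authors extracted RNA with TRIzol, prepared libraries with a NEBNext Ultra kit and sequenced them on an Illumina NovaSeq. Per the submitters' processing notes, reads passed Trim Galore 0.6.1 and FastQC 0.11.9 and were aligned to mm10 with HISAT2 and counted with featureCounts. The annotation release and strandedness are not given in the sources used here. The authors deposited raw counts per gene and liver, not normalized, and the exon length of each gene. The deposited FPKM scale these counts to exon length and to the total count of the liver, and the counts return them to within rounding. The mean signal, log2 fold change, standard error, Wald statistic and p-values of the authors' own comparison were not used.

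Of 55699 lines, 314 repeated an identifier and were read once, and coordinates and overlaps of 55144 identifiers came from GENCODE vM21 on GRCm38. edgeR 4.0.16 (R 4.3.3) was run on the counts of genes that reached an FPKM of 0.5 in 4 or more of 8 livers, with TMM factors from 0.911 to 0.94 for controls and from 1.01 to 1.19 for *Usp39*-HKO livers and genotype as the only term (common biological coefficient of variation 0.179). The F statistic gave the standard errors. P-values are two-sided and corrected by Benjamini-Hochberg over all 14340 genes, or from exact permutation over the 70 assignments of mice, whose smallest value is 0.0286. A floor of 3 counts was 0.288 to 0.349 CPM and covers counting error only. The fit was tested on simulated data. Mice are numbered in accession order, which pairs none of them, and the labels name no batch.

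The alternatives were DESeq2 1.42.0, median-ratio, upper-quartile and no scaling factors, no filter or a mean FPKM of at least 5, limma 3.58.1 on log2(FPKM + 1) and log2(FPKM + 0.1), each mouse left out in turn and, chosen after seeing the data, library sizes set to the geometric mean count of 14 hepatocyte markers. The 10 genes and all lists were chosen with earlier results of these data known. Beyond the 10, the text names the 4 called genes of each list with the largest change, with *Nr5a2*, *Hnf4a*, *Rxra*, *Fgfr4*, *Klb* and *Slc51a* in any case, and the 3 genes most like the largest fall. No gene of the 10 shared 150 bases or more at 97% identity or more with another gene (BLAST+ 2.17.0+). Promoter windows of *Cyp7a1*, *Cyp7b1* and *Baat* were not analysed here, and *Slc10a1* had a window for each of 2 starts.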

Additional observations from a re-analysis of the deposited data

How the results depend on the processing

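With 4 mice per genotype and 1 library per mouse, changes such as that of *Abcb11* lie within wide intervals, *Slc51b* rests on 4 to 32 counts, and scaling decides small falls. *Cyp8b1*, *Cyp27a1*, *Cyp7b1* and *Slc10a1* kept their direction and call in all 17 alternatives, *Baat* in 16 and *Cyp7a1* in 15. No paired analysis was possible because the labels give no replicate numbers shared between the genotypes. The cause of the differences below was not tested.

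With no scaling factors, 3525 genes were higher and 696 lower, 16 other pathway genes were lower, and the log2 fold changes were 0.09 for *Abcb11*, −0.28 for *Nr1h4* and −0.39 for *Nr0b2*. Among the named genes *Hnf4a* then changed sign to 0.01. At a mean FPKM of at least 5, where *Slc51b*, *Abcb1a*, *Abcc1*, *Abcc4* and *Dbp* were not tested, 750 genes were higher and 845 lower, 4 other pathway genes were higher and *Nr0b2* was at −0.55. Upper-quartile factors gave −0.57 for *Nr0b2*. In limma on log2(FPKM + 1), 3012 genes were higher and 620 lower, 14 other pathway genes were lower, *Abcb11* was at 0.02, *Nr1h4* at −0.29 and *Nr0b2* at −0.42. In limma on log2(FPKM + 0.1), 2929 genes were higher and 541 lower, 5 of the 10 genes and 12 other pathway genes were lower, *Abcb11* was at 0.02, *Nr1h4* at −0.29, *Nr0b2* at −0.44 and *Cyp7a1* at −1.54 (adjusted p = 0.0502). *Hnf4a* was at 0.02 in both limma fits. Scaled to hepatocyte markers, 5340 genes were higher and 301 lower, 5 of the 10 genes were lower and 1, *Slc51b*, was higher at 1.53. That scaling gave 18 other pathway genes higher and 10 lower, with *Abcb11* at 0.35, *Nr1h4* at −0.08, *Nr0b2* at −0.14, *Baat* at −0.37, *Atp7b* at 0.01, *Hnf4a* at 0.24, *Rxra* at 0.12 and *Klb* at 0.11.

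With 1 mouse left out in turn, between 982 and 1847 genes were higher and between 949 and 1666 lower, the lowest of each without control 3. Of the 10 genes, 5 to 8 were lower, and of the other pathway genes 3 to 8 were higher and 19 to 33 lower. The log2 fold change was between −2.25 and −1.43 for *Cyp7a1*, between −0.61 and −0.38 for *Nr1h4*, between −0.78 and −0.44 for *Nr0b2*, between −0.27 and 0.03 for *Abcb11* and between 0.58 and 1.47 for *Slc51b*.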
